A study of Arabidopsis thaliana with 4 samples.

Results

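The class III homeodomain-leucine zipper (HD-ZIP III) genes are the 5 Arabidopsis thaliana loci PHB (AT2G34710), PHV (AT1G30490), REV (AT5G60690), HB-8 (AT4G32880) and HB-15 (AT1G52150, also called CORONA). They were taken by locus from a table of 33557 loci, and all 5 were listed with a value above 0 in every library. Poly(A) RNA came from whole seedlings 14 days old, kept under a day of 16 h light and 8 h dark. There were 2 genotypes with 2 libraries each: Col-0, called the wild type here, and mos2-2, called the mutant, a single T-DNA insertion line (SALK_033856) in the same Col-0 background. No other allele and no rescued line was part of these libraries. The labels do not state whether libraries of 1 genotype came from separate sets of plants, so a p-value here measures the spread between libraries and that spread may be technical. Levels are FPKM, fragments per kilobase of transcript, scaled to the size of the library.

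HD-ZIP III proteins are transcription factors that set the upper (adaxial) side of leaves, keep the shoot meristem active and pattern the vascular tissue. Their mRNAs are cut by ARGONAUTE1 loaded with miR165 or miR166, which confines the transcripts to the adaxial side, the meristem and the vasculature. AGO10 binds the same microRNAs and keeps them away from AGO1. MOS2 is an RNA-binding protein that the study's title ties to microRNA maturation, so the comparison asks whether transcripts under a microRNA differ when MOS2 is disrupted.

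The microRNAs are shown first because their pairing with these mRNAs defines the family studied here. The annotation of TAIR10.1 gives 9 mature miR165/miR166 species from the 3′ arm, which fall into 2 sequences sharing 1 seed. Of them 2 carry the miR165 sequence and 7 carry the miR166 sequence. Capitals mark the seed, bases 2 to 8.
miR165a-3p: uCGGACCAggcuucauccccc
miR166a-3p: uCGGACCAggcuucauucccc

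Each HD-ZIP III transcript held 1 best complementary site of 21 nt, read from the spliced transcript of TAIR10.1 and printed 5′ to 3′ as RNA. Capitals mark the bases that differ from a perfect complement of miR166a-3p.
PHB: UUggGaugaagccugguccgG
PHV: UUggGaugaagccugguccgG
REV: CUggGaugaagccugguccgG
HB-8: CUggGaugaagccugguccgG
HB-15: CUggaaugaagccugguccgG

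Counted from the 5′ end of the site, bases 14 to 20, which face the seed, had 0 mismatches in all 5 genes. PHB and PHV shared the same site, with G1U, G2U, A5G and A21G against the complement of miR166a-3p. REV and HB-8 shared another, with G1C, G2U, A5G and A21G. HB-15 had G1C, G2U and A21G only, so it was the closest of the 5 to miR166a-3p, at 3 mismatches against 4 in the others. Against miR165a-3p the order turned: PHB, PHV, REV and HB-8 had 3 mismatches and HB-15 had 4, its added one being G5A. Bases that form a G:U pair count as mismatches here.

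In all 5 genes the site lay within the coding sequence and was split by an intron after its base 11. In PHB (minus strand) it spanned chr2:14642530-14642666 across exons 4 and 5, and in PHV (minus strand) chr1:10799330-10799445 across exons 4 and 5. In REV (plus strand) it spanned chr5:24398787-24398898 across exons 4 and 5. In HB-15 (minus strand) it spanned chr1:19412976-19413085 across exons 4 and 5, and in HB-8 (minus strand) chr4:15866872-15866974 across exons 5 and 6. The intron inside the site measured 116 nt in PHB, 95 nt in PHV, 91 nt in REV, 89 nt in HB-15 and 82 nt in HB-8. A site present only after splicing is thus shared by the whole family.

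**Figure D1:**
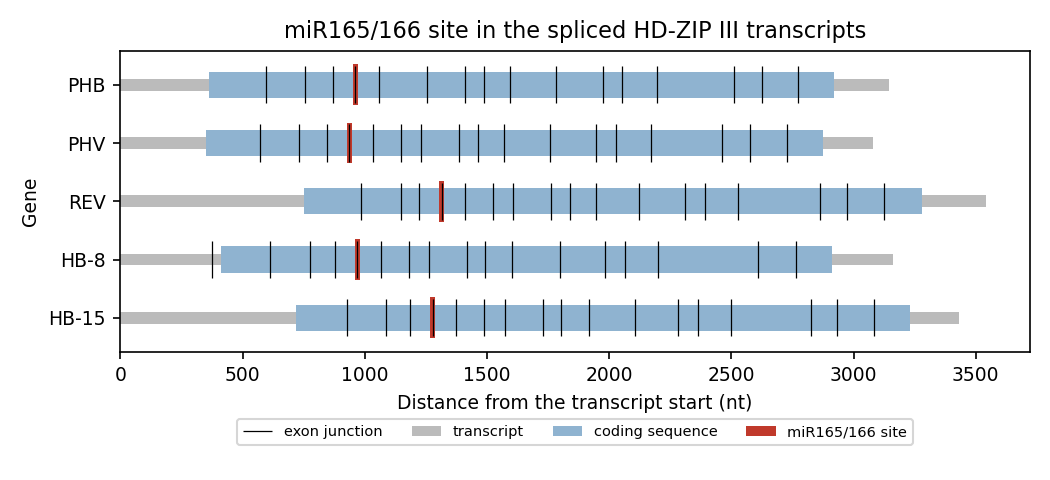
Spliced transcripts of the 5 HD-ZIP III genes, with distance from the transcript start in nt on the x axis. Blue is coding sequence, grey the rest of the transcript, thin lines are exon junctions and red is the 21 nt miR165/miR166 site, which begins at 952 nt in PHB, 927 nt in PHV, 1304 nt in REV, 959 nt in HB-8 and 1268 nt in HB-15 and lies on a junction in each.

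The scan covered 59893 annotated transcripts of 37885 loci and allowed up to 4 mismatches. It returned 7 loci for miR165a-3p and 12 for miR166a-3p, 5 of them the HD-ZIP III genes in both cases. The 12 include MIR166F, itself a gene of miR166. None of the 16 HD-ZIP IV genes, which encode the related homeodomain factors of the epidermis, had such a site (0 of 16 for either microRNA). A match describes letters only and is not evidence of cutting.

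The proteins have between 833 and 852 residues. PHB and PHV were 86.8% identical over 839 aligned residues, and HB-8 and HB-15 were 77.2% identical over 824. All other pairs lay between 63.4% (PHV and HB-8) and 69.4% (PHV and REV). Shared stretches of transcript were short: the longest run common to PHB and PHV was 64 nt, and between other pairs 20 to 29 nt. Of the 36-mers, HB-8 and HB-15 shared 0 with any other annotated transcript, PHB 41 of 3111, PHV 104 of 3044 and REV 32 of 3509. The REV matches, counted on either strand, are to AT5G60700, a gene whose exons overlap those of REV. Division of reads among family members therefore concerns a small part of each transcript, although the handling of such reads is not given in the sources used here.

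MOS2 (AT1G33520) itself read 50.3 and 36.9 FPKM in the wild type against 2.16 and 1.16 FPKM in the mutant, 26.3-fold lower, in the direction of the labels (limma adjusted p = 0.0727). The 4 libraries summed to between 1350292 and 1522916 FPKM. From the steps between low values, 1 read per kilobase of transcript was worth 0.237 FPKM in Col-0 replicate 1 and 0.145 to 0.150 FPKM in the other 3 libraries, so Col-0 replicate 1 was the shallowest. On that scale an HD-ZIP III value rested on an estimated 88 to 256 reads, for which counting alone gives an SD of 6.25% to 10.7%. These read numbers are estimates, since 72.8% to 75.6% of low values came within 0.2 of a whole number, and they cover counting error only.

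No HD-ZIP III gene passed the test between genotypes, and the summed level of the family, as deposited, overlapped between them. The widest difference by size was that of HB-8, which was higher in both mos2-2 libraries. The sum over the 5 genes was 47.1 and 37.6 FPKM in the wild type and 45.5 and 47.3 FPKM in the mutant, or 42.4 ± 6.75 against 46.4 ± 1.27 FPKM (SD, n = 2 each). The Col-0 libraries lay on both sides of mos2-2 replicate 1. That overlap is shown for the deposited values only. Median-ratio scaling divides each library by a size factor, 1.11 for Col-0 replicate 1 and 1.0015 for mos2-2 replicate 1. After it PHB, PHV and HB-8 lay higher in both mos2-2 libraries, while REV and HB-15 overlapped. The sum was not formed on that scale. Without HB-8 the sum over the other 4 genes was 36.2 ± 4.73 in the wild type and 36.4 ± 3.14 FPKM in the mutant (SD, n = 2 each). Whole seedlings were sampled, so more cells of a type and more RNA per cell cannot be told apart, here or in any result that follows.

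PHB and PHV, close relatives that promote adaxial fate, come first. PHB stood at 10.1 and 8.65 FPKM in the wild type and 9.37 and 10.7 FPKM in the mutant. The libraries interleaved, with the lowest value in Col-0 and the highest in mos2-2. The difference between genotypes was 0.09 on the log2(FPKM + 1) scale (SE 0.23, limma adjusted p = 0.949), while the replicates lay 0.20 apart in Col-0 and 0.17 apart in mos2-2. PHV stood at 11.3 and 8.35 FPKM in the wild type and 11.1 and 10.9 FPKM in the mutant. Its mos2-2 libraries were nearly equal and both lay between the Col-0 libraries. The log2 difference was 0.16 (SE 0.25, limma adjusted p = 0.913). The ratio of PHB to PHV was 0.892 and 1.04 in Col-0 and 0.846 and 0.983 in mos2-2, again with overlap.

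REV, which acts in adaxial fate, meristem formation and interfascicular fibres, was the lowest of the family by the means. In Col-0 replicate 2 HB-8 was lower still, at 4.73 FPKM. REV stood at 5.87 and 5.60 FPKM in the wild type and 4.99 and 6.77 FPKM in the mutant. Both Col-0 values lay between the mos2-2 values. The log2 difference was 0.02 (SE 0.25, limma adjusted p = 0.994), the smallest of the 5.

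HB-8, expressed in procambium and promoting vascular differentiation, differed most. It stood at 7.58 and 4.73 FPKM in the wild type and 11.4 and 8.72 FPKM in the mutant, or 6.16 ± 2.02 against 10.0 ± 1.86 FPKM (SD, n = 2 each), a ratio of means of 1.63. Both mos2-2 libraries lay above both Col-0 libraries, but Col-0 replicate 1 came close to mos2-2 replicate 2. The log2 difference was 0.64 (SE 0.31, 95% interval -0.15 to 1.44), and it did not pass the threshold (limma unadjusted p = 0.0912, adjusted p = 0.756). The gap between the Col-0 replicates, 0.58 on the same scale, was almost as wide. In estimated reads, HB-8 held 101 and 100 in Col-0 and 239 and 190 in mos2-2. These counts are not corrected for depth, which was lowest in Col-0 replicate 1, so they do not compare levels between libraries. The difference was 0.35 without Col-0 replicate 2 and 0.94 without Col-0 replicate 1, so its size depended on which wild-type library was kept.

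HB-15, the closest relative of HB-8 and also active in vascular tissue and the meristem, was the only member lower by the means. It stood at 12.2 and 10.3 FPKM in the wild type and 8.71 and 10.3 FPKM in the mutant. The values of Col-0 replicate 2 and mos2-2 replicate 2 were 10.25 and 10.28 FPKM, so the groups overlapped by a narrow margin. The log2 difference was -0.22 (SE 0.24, limma adjusted p = 0.86). HB-8 and HB-15 thus leaned in opposite directions, and the ratio of HB-8 to HB-15 was 0.619 and 0.461 in Col-0 and 1.30 and 0.848 in mos2-2. Both mos2-2 ratios exceeded both Col-0 ratios. This ratio was formed after the values of both genes had been seen and has no test of its own.

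**Figure D2:**
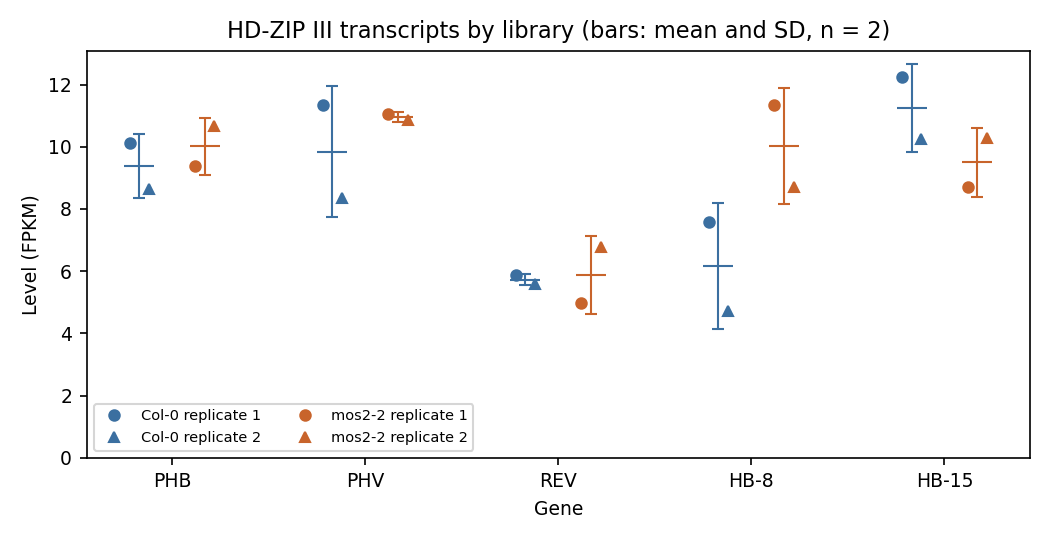
Level of each HD-ZIP III transcript in FPKM (y axis) by gene (x axis), with circles for replicate 1 and triangles for replicate 2 of Col-0 (blue) and mos2-2 (orange), and bars for the mean and SD (n = 2). HB-8 is the only gene whose mos2-2 values, 11.4 and 8.72 FPKM, both lie above its Col-0 values, 7.58 and 4.73 FPKM.

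Over the family, 0 of 5 genes passed limma at an adjusted p of 0.05, where 12 of 19236 genes tested, or 0.0624%, did so. No member had an unadjusted p under 0.05 either (0 of 5, against 7.02% of all genes tested). By library values 1 of 5 genes did not overlap between genotypes, where 37.8% of all genes tested did not. That gene, HB-8, was higher in mos2-2, as were 13.1% of all genes tested without overlap, and 5.32% of all genes tested had a log2 difference at least as large as its own. The median difference of the members was 0.09, against -0.09 over all genes tested, and 4 of 5 were above 0. As deposited 7802 of all genes tested were above 0 and 11434 below. The 95% intervals ran from -0.51 to 0.68 for PHB, from -0.49 to 0.80 for PHV, from -0.64 to 0.68 for REV and from -0.84 to 0.39 for HB-15. Those intervals are not limits of detection. With 2 libraries a genotype even MOS2, at a log2 difference of -4.08, missed the adjusted threshold. Calls for differences as small as those of the members were thus out of reach, and the missing calls do not show equal levels. After median-ratio scaling, which moves the median of all genes from -0.09 to 0.0025, PHB and PHV joined HB-8 in lying higher in both mos2-2 libraries. That made 3 of 5 members, where 39.4% of all genes tested did not overlap on that scale, 19.6% higher and 19.8% lower, against 13.1% and 24.7% as deposited. All 3 still missed the threshold. After quantile normalization the same 3 of 5 members did not overlap, where 39.1% of all genes tested did not (20.7% higher, 18.4% lower). It moved the median of all genes to 0.013, and under either scaling each of the 5 genes kept its direction, with HB-8 at 0.74 and 0.75.

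Ordered by mean level, in FPKM and so per length, HB-8 and HB-15 held different places in the 2 genotypes and REV was last in both. In Col-0 the order was HB-15, PHV, PHB, HB-8 and REV, at means of 11.3, 9.84, 9.38, 6.16 and 5.73 FPKM. Neighbours in that order overlapped in their libraries except PHB and HB-8. In mos2-2 it was PHV, HB-8, PHB, HB-15 and REV, at 11.0, 10.0, 10.0, 9.49 and 5.88 FPKM, and only REV stood clear of its neighbour. HB-8 made up 16.1% and 12.6% of the summed HD-ZIP III level in Col-0 and 25.0% and 18.4% in mos2-2. HB-15 made up 26.0% and 27.3% in Col-0 and 19.2% and 21.7% in mos2-2. The shares of PHB, PHV and REV overlapped between genotypes.

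**Figure D3:**
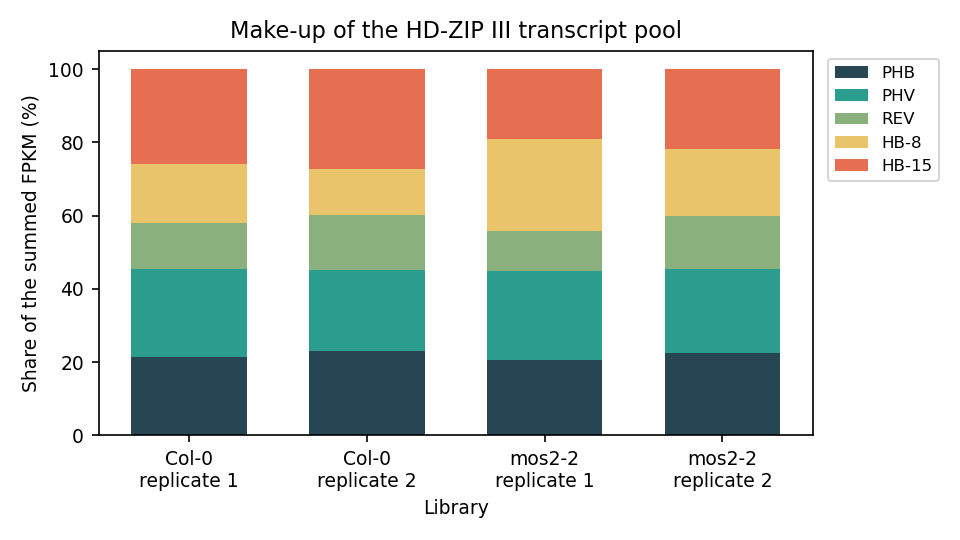
Share of each gene in the summed FPKM of the 5 HD-ZIP III genes (y axis, percent) in each of the 4 libraries (x axis). The HB-8 segment covers 16.1% and 12.6% in Col-0 against 25.0% and 18.4% in mos2-2, and the HB-15 segment 26.0% and 27.3% against 19.2% and 21.7%.

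Values of the annotated microRNA genes were nearly all 0 in these poly(A) libraries, which does not show that their transcripts were absent. Of the 9 MIR165 and MIR166 loci, 8 were listed at 0 in all 4 libraries. MIR166A had a value above 0 in mos2-2 replicate 2 alone, at 16.5 FPKM. A single value of a very short gene gives no comparison, and mature microRNAs were not measured in the libraries analysed here. AGO10, which sequesters miR165/miR166, stood at 8.34 and 9.84 FPKM in the wild type and 10.8 and 8.61 FPKM in the mutant, with overlap. AGO1, the slicer, stood at 41.5 and 30.7 FPKM in the wild type and 31.4 and 28.8 FPKM in the mutant, also with overlap.

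The LITTLE ZIPPER genes ZPR1 to ZPR4 encode small proteins that pair with HD-ZIP III proteins and block their binding to DNA, and HD-ZIP III factors activate their transcription. All 4 were tested and all 4 had lower means in mos2-2, 3 of them without overlap. Over all 19236 genes tested 11434 were lower, and 24.7% were lower without overlap. The same 3 lay lower after median-ratio scaling. The median difference was -0.69, against -0.09 over all genes, and 0 of 4 passed limma. ZPR1 stood at 11.8 and 17.9 FPKM in the wild type and 10.2 and 6.96 FPKM in the mutant, 1.74-fold lower (log2 difference -0.72, SE 0.32, limma adjusted p = 0.745). ZPR2 stood at 17.9 and 9.55 FPKM in the wild type and 5.24 and 8.38 FPKM in the mutant, 2.01-fold lower (log2 difference -0.88, SE 0.39, limma adjusted p = 0.745). For both genes the closest libraries of the 2 genotypes were less than 2 FPKM apart. ZPR4 stood at 4.05 and 3.57 FPKM in the wild type and 1.52 and 2.70 FPKM in the mutant. Its lowest value, in mos2-2 replicate 1, compares with 0.150 FPKM for 1 read per kilobase in that library. Reads were not estimated for the ZPR genes, so the counting error of these values was not assessed. ZPR3 overlapped, at 5.08 and 5.03 FPKM against 5.91 and 3.52 FPKM. Summed over the 4 genes the level was 38.8 and 36.1 FPKM in the wild type and 22.9 and 21.6 FPKM in the mutant, a wider gap than the replicates showed, and the sum was formed after the values had been seen. The replicates of ZPR1 and ZPR2 moved in opposite directions within each genotype, which narrows the spread of the sum.

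**Figure D4:**
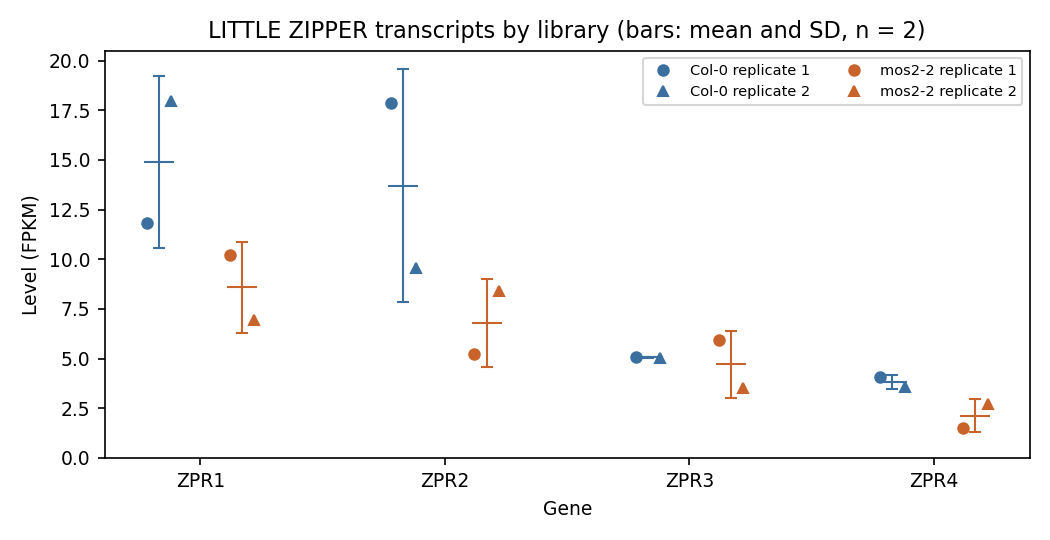
Level of ZPR1 to ZPR4 in FPKM (y axis) by gene (x axis), drawn as circles (replicate 1) and triangles (replicate 2) for Col-0 (blue) and mos2-2 (orange) with mean and SD (n = 2). The mos2-2 points of ZPR1, ZPR2 and ZPR4 lie below all Col-0 points of the same gene, while those of ZPR3, at 5.91 and 3.52 FPKM, lie on both sides of Col-0.

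The HD-ZIP IV genes share the homeodomain, zipper and START domain but lack the microRNA site, and served for comparison. Of 16 listed, 8 were tested, 4 higher and 4 lower; their median was 0.02, with a range from -0.20 to 0.18. Among them 1, ATML1, did not overlap (19.7 and 17.7 FPKM in the wild type, 15.4 and 16.8 FPKM in the mutant), and 0 passed limma. Of all genes tested 37.8% did not overlap. After median-ratio scaling ATML1 overlapped and HDG12 was higher without overlap. The median turned to -0.20 without Col-0 replicate 2 and to -0.11 without mos2-2 replicate 1. HB-8, at 0.64, lay outside the range of these 8, whereas PHB, PHV and REV lay inside it and HB-15, at -0.22, just below it. No test sets the classes against each other.

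HD-ZIP II genes and auxin synthesis genes include targets of REV and its relatives. Of 7 listed, 6 were tested, 4 higher and 2 lower. Their median was 0.24 and 0 passed limma. The median turned to -0.26 without Col-0 replicate 1 and to -0.21 without mos2-2 replicate 2. HAT1 was the 1 gene without overlap, where 37.8% of all genes tested did not overlap. It stood at 40.0 and 27.7 FPKM in the wild type and 56.8 and 51.8 FPKM in the mutant (log2 difference 0.69, SE 0.29, limma adjusted p = 0.726). HAT3, which acts with HD-ZIP III genes in leaf polarity, stood at 12.2 and 16.6 FPKM against 8.51 and 14.0 FPKM, with overlap. The auxin synthesis gene TAA1 stood at 6.30 and 7.18 FPKM against 6.51 and 12.8 FPKM, also with overlap. For HB-2, a shade-responsive gene, the replicates lay 1.80 apart in Col-0 and 0.97 in mos2-2 on the log2 scale, far more than the genotypes (0.10).

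Regulators of the lower (abaxial) leaf side oppose HD-ZIP III activity. Of 12 listed, 10 were tested, 2 higher and 8 lower, where 7802 of all 19236 genes tested were higher and 11434 lower. The median of the list was -0.16, against -0.09 over all genes tested, and 0 of its genes passed limma. It turned to 0.07 without Col-0 replicate 1 and to 0.0022 without mos2-2 replicate 1. Without overlap 2 were higher and 2 lower, where 13.1% and 24.7% of all genes tested were. After median-ratio scaling it was 2 and 1, where 19.6% and 19.8% of all genes tested were. KAN1, a GARP-type repressor of adaxial fate, had means 1.86-fold lower in mos2-2 but overlapped, at 12.0 and 3.83 FPKM in the wild type and 6.30 and 2.21 FPKM in the mutant. YAB2 was lower without overlap, at 17.4 and 15.6 FPKM against 13.8 and 9.79 FPKM. YAB5 was higher without overlap, at 24.8 and 20.4 FPKM against 30.6 and 30.9 FPKM. ETT, an auxin response factor of abaxial fate, was also higher without overlap (9.32 and 9.07 against 11.0 and 10.0 FPKM). KAN3 was lower without overlap (3.26 and 3.96 against 2.77 and 3.11 FPKM), which ended with median-ratio scaling. On the adaxial side, AS1 and AS2, partners that repress abaxial and meristem genes in leaves, both overlapped between genotypes.

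Vascular genes form the setting in which HB-8 acts. Of 15 listed, 14 were tested, 4 higher and 10 lower, where 7802 of all 19236 genes tested were higher and 11434 lower. The median of the list was -0.18, and 0 of its genes passed limma. It ranged from -0.26 to -0.04 with 1 library left out. Without overlap 3 were higher and 4 lower, where 13.1% and 24.7% of all genes tested were. After median-ratio scaling it was 3 and 2, where 19.6% and 19.8% of all genes tested were. MP, the auxin response factor that activates HB-8, stood at 4.82 and 4.08 FPKM in the wild type and 2.90 and 3.97 FPKM in the mutant, below Col-0 in both libraries as deposited but with overlap after median-ratio scaling. TMO5, another target of MP, was higher in both mos2-2 libraries (6.57 and 7.42 against 9.50 and 7.77 FPKM), while its partner LHW was lower in both (10.4 and 9.63 against 5.98 and 7.53 FPKM). PXY, a receptor kinase of the cambium, was lower without overlap, at 8.15 and 7.63 against 5.02 and 5.62 FPKM. WOX4, of the same list, went the other way without overlap, at 4.17 and 4.38 against 5.81 and 4.50 FPKM. Both kept their side after median-ratio scaling. ACL5, a thermospermine synthase gene that limits xylem differentiation, overlapped at 30.5 and 24.6 against 29.6 and 24.0 FPKM. Among differentiation markers, the xylem protease gene XCP1 was lower without overlap, at 17.91 and 19.98 against 14.0 and 15.9 FPKM, which ended with median-ratio scaling. The phloem regulator APL was higher without overlap, at 10.7 and 10.2 against 13.8 and 10.8 FPKM. XCP2 and the cellulose synthase genes CESA4, CESA7 and CESA8 overlapped. The part of vascular cell numbers in the HB-8 values was not tested.

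**Figure D5:**
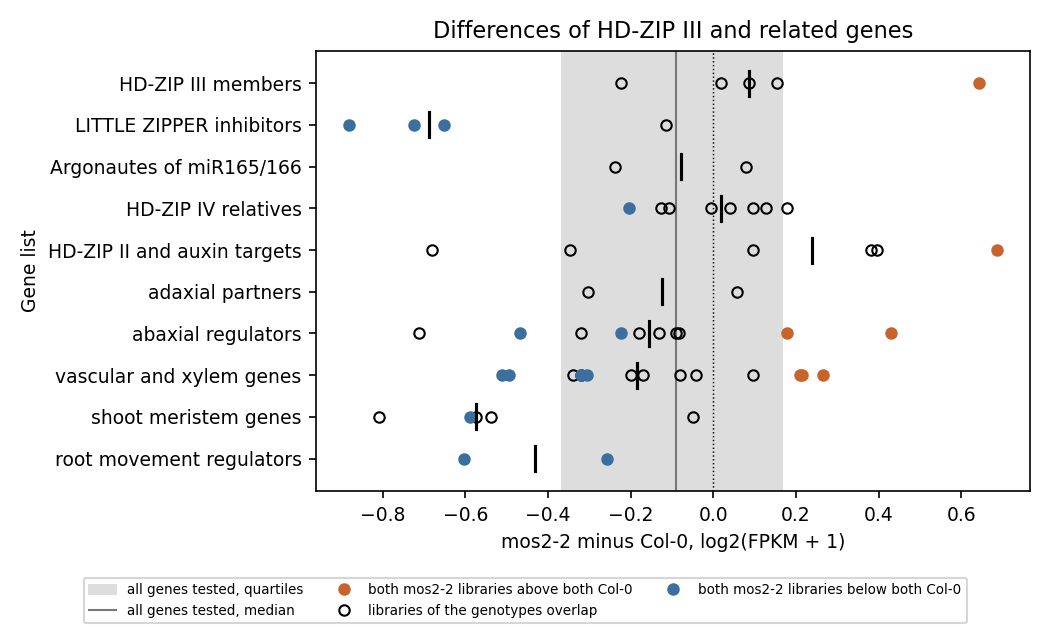
Difference between genotypes (x axis, mos2-2 minus Col-0, log2(FPKM + 1)) for each tested gene of each list (y axis). Filled points mark genes whose libraries do not overlap between genotypes, black ticks the median of the list, and the grey band the quartiles of all genes tested, from -0.37 to 0.17. HB-8 at 0.64 stands apart from the other HD-ZIP III genes, and the LITTLE ZIPPER genes have a median of -0.69.

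As a description of likeness, genes were ranked by how closely their centred log2 values over the 4 libraries followed the mean of the 5 HD-ZIP III genes. Among 14155 genes averaging 5 FPKM or more, the nearest were XCT, AT4G40030, AT3G54680, BTF3 and AVA-P4, at root mean square distances of 0.014 to 0.019 on the log2 scale. XCT, for example, stood at 24.6 and 19.6 FPKM in the wild type and 23.9 and 24.7 FPKM in the mutant. In all, 673 genes lay within 0.1, so 4 libraries single out no small group. PHB and PHV lay 0.053 from the family mean, REV 0.147, HB-15 0.187 and HB-8 0.312, which restates how far HB-8 and HB-15 departed from the rest.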

How the data were processed

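The authors deposited 1 file of FPKM per locus for each library, without pooling replicates. The submitters' processing notes name TopHat, Cuffdiff and the TAIR10 build. Their versions and options, strand handling included, are not stated there or in any label. Names, models and sequences came from RefSeq TAIR10.1, which matched 32810 of the 33557 loci.

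The test between genotypes was limma (version 3.58.1, R 4.3.3), applied to log2(FPKM + 1) of 19236 genes whose mean reached 1 FPKM. Genotype was the only term, with a mean-variance trend, two-sided tests and Benjamini-Hochberg adjustment over all genes (threshold 0.05, 2 residual and 2.84 prior degrees of freedom). This scale understates the change of low genes. On simulated data with known changes the fit recovered their sizes. It called only changes far larger than the differences of the HD-ZIP III genes. The simulated noise was drawn around a pooled spread, scaled down, that did not follow the level of a gene. Changes were placed only in genes of higher level, so the simulation describes the fit and gives no power for these libraries. Sites and protein identities (global alignment, BLOSUM62) were computed with Biopython 1.88. The depth estimate used low values of transcripts of 2000 to 4000 nt.

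The members and lists were chosen with earlier results of these data known. Named genes are the 5 members, list genes, MOS2 and the 5 genes of most similar profile. Alternatives were other pseudocounts, filters, scalings, no trend, a replicate block and leaving out each library.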

Additional observations from a re-analysis of the deposited data

How the results depend on the processing

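No HD-ZIP III gene passed in any of the 12 alternatives; HB-8 had an unadjusted p under 0.05 in 4 of them (both scalings, the replicate block and without Col-0 replicate 1). HB-8 remained above 0 in all 12 (0.35 to 0.94, adjusted p 0.474 to 0.9995) and HB-15 below 0 in all 12 (-0.34 to -0.10). PHB, PHV and REV sat near 0 and changed sign when 1 library was left out: ranges were -0.01 to 0.19 for PHB, -0.04 to 0.35 for PHV and -0.17 to 0.21 for REV, PHB and PHV turning without Col-0 replicate 2 (-0.0147 and -0.0441) and REV without Col-0 replicate 2 (-0.009) or mos2-2 replicate 2 (-0.1683). The 12 genes called over the whole table became 4 with a pseudocount of 5, 4 with no filter, 7 with no trend and 0 with any library left out, where 819 to 1790 had an unadjusted p under 0.05 and 1 residual degree of freedom was left, a lone library being taken to vary as much as the other genotype. The replicate number is no stated pairing (r = 0.211 between deviations of same-numbered libraries); with the replicate block 6 genes passed, HB-8 keeping its difference at an adjusted p of 0.474. Genes without overlap, 7277 of 19236, numbered 12384 to 14317 with 1 library left out, since fewer values must then separate. The median of the LITTLE ZIPPER genes stayed below 0 in all 12 (-0.83 to -0.43). Those of the vascular, shoot meristem and root lists did so too, and that of all genes in 10 of 12 (-0.17 to 0.013). The cause of the other changes was not tested. Replicate spread and n = 2 limit these comparisons, with 88 to 256 estimated reads a value for the HD-ZIP III genes and no estimate for the other lists.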

Other observations

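Shoot meristem genes, among which HD-ZIP III genes act, were low in mos2-2 replicate 1 in particular. STM, the KNOX gene that maintains the meristem, stood at 13.3 and 11.7 FPKM in the wild type, 3.52 FPKM in mos2-2 replicate 1 and 12.1 FPKM in replicate 2. KNAT1 followed the same pattern, at 5.79 and 4.51 FPKM in the wild type and 1.42 and 6.33 FPKM in the mutant. KNAT6 stood at 6.21 and 3.47 FPKM in the wild type and 1.74 and 4.31 FPKM in the mutant. The sum of STM, KNAT1, KNAT2 and KNAT6 was 26.6 and 21.1 FPKM in the wild type and 7.56 and 24.5 FPKM in the mutant. The 5 tested meristem genes had a median of -0.57, which was -0.04 without mos2-2 replicate 1, and 0 passed limma. CLV1, a receptor kinase that restricts the meristem, was the 1 gene without overlap, at 13.3 and 19.2 FPKM in the wild type and 9.53 and 11.1 FPKM in the mutant. Of all genes tested 24.7% were likewise lower without overlap. WUS and CLV3, defining markers of the meristem centre, were near or at 0 in every library (at most 0.198 and 0.407 FPKM). In the same library, mos2-2 replicate 1, HB-15 and REV were at their lowest (8.71 and 4.99 FPKM) and HB-8 at its highest (11.4 FPKM). PHB and PHV, at 9.37 and 11.1 FPKM there, lay within the range of their other libraries. The part of the meristem genes in the HD-ZIP III values was not tested.

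In the root, SHR and SCR switch on MIR165 and MIR166 genes in the endodermis, and the microRNA then moves inward to restrict HD-ZIP III transcripts in the stele. SHR stood at 9.08 and 6.73 FPKM in the wild type and 3.38 and 6.69 FPKM in the mutant, and SCR at 6.01 and 5.23 FPKM against 4.21 and 4.88 FPKM. Both were lower without overlap, SHR by a margin of 0.04 FPKM that was lost with median-ratio scaling, and neither passed limma. Of all genes tested 24.7% were lower without overlap as deposited.

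The scan returned 8 loci outside the family, of which 5 were tested. Among the loci not tested was MIR166F, itself a gene of miR166. HAF01, AT1G76590 and SQP1 overlapped between genotypes, and the other 2 did not, where 37.8% of all genes tested did not. AT4G22620 was higher in both mos2-2 libraries, at 2.18 and 0.457 FPKM in the wild type and 5.91 and 6.61 FPKM in the mutant, and HL (AT5G54390) was lower in both, at 55.6 and 52.9 against 44.0 and 45.8 FPKM. Both have 4 mismatches to miR166a-3p and were named after their values were seen.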
